A study of Mus musculus with 12 samples.

Results

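The 35 genes described here are interferon-induced genes outside the major histocompatibility complex, chosen as a list of gene names, and all 35 were found among the 48709 genes of the deposited tables. They comprise 4 transcription factors, 5 genes for nucleic acid sensors and their partner ligase, and 10 antiviral effectors. The rest are the 2 genes of the ISG15 system, 7 interferon-induced GTPases, 2 PARP proteins and 5 other genes. All 35 had enough counts to be tested, as had 15571 genes in all. RNA came from adult mouse brain cells selected by ACSA-2, an antigen on the surface of astrocytes, 24 h after tMCAO, a stroke model in which a filament closes the middle cerebral artery of 1 hemisphere for a time and is then withdrawn. Each of 6 C57BL/6 mice, aged 90 to 120 postnatal days, gave 1 library of the ipsilateral (occluded) and 1 of the contralateral hemisphere, so that there were 4 groups of 3 libraries. Mice labelled Nhe1 Astro-KO (295, 298 and 300, KO here) and mice labelled wild-type (296, 297 and 474, WT here) had the same genotype, Gfap-CreERT2+/-;Nhe1f/f, in which a tamoxifen-activated Cre under the Gfap promoter can delete the floxed Nhe1 gene. The KO mice received tamoxifen and the WT mice corn oil, so effects of the drug cannot be told apart from those of the deletion, and the mice labelled wild-type carry Cre too. How far Nhe1 was deleted is not reported here, and every genotype direction is between libraries so labelled. The comparisons ask how the occlusion changed these genes in the selected cells, and whether that differed with the deletion.

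Interferons are secreted proteins that warn cells of viruses and damage. Type I interferons bind Ifnar1 and Ifnar2 and, through the kinases Jak1 and Tyk2, activate a complex with Stat2 and Irf9 that binds the interferon-stimulated response element (ISRE) in promoters, while interferon gamma acts through the gamma-activated site (GAS). Astrocytes and microglia both carry these receptors and switch on overlapping sets of interferon-induced genes in infection, ageing and injury of the brain.

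The promoters of several of these genes show the elements directly. Short stretches of 7 members with a match before the gene's start are printed here because the transcript changes below concern genes of this kind. Members with neither element, or with an ISRE core and a separate GAS, are not among them. The stretches come from RefSeq promoter windows of GRCm38.p6, the assembly also called mm10, which run from 250 bases before to 50 bases after a gene's start, and each is written 5′ to 3′ along the gene's own strand. Capitals mark each match on either strand to the ISRE core, searched as 2 copies of GAAA with any 2 bases between them, or to GAS, searched as TTCNNNGAA, and matches that overlap run together. Ifit1 (chr19:34640765-34640833, plus strand) and Ifit3 (chr19:34583353-34583436, plus strand) each hold 2 separate ISRE cores, Isg15 (chr4:156200855-156200916, minus strand) holds 3 that overlap, and Gbp3 (chr3:142559979-142560034, plus strand) holds 2 that overlap. Gbp2 (chr3:142620584-142620633, plus strand) holds 1. Bst2 (chr8:71537567-71537628, minus strand) holds a GAS that overlaps a pair of ISRE cores, and Irf1 (chr11:53769904-53769952, plus strand) holds a GAS alone.
Ifit1: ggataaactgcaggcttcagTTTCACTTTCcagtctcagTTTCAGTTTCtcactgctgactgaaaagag
Ifit3: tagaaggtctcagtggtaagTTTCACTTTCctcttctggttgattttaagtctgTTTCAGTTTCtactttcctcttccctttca
Isg15: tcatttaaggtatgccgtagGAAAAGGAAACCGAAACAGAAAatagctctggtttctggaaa
Gbp3: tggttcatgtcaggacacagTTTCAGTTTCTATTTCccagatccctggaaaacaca
Gbp2: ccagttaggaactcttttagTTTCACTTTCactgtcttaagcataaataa
Bst2: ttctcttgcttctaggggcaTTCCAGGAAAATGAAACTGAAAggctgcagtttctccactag
Irf1: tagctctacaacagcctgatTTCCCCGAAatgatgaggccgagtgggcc

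Windows were at hand for 25 of the 35 members. An ISRE core lay in a window of 15 of these 25 and of 3.99% of all 27025 genes with a window (3.44% of 32851 windows), and a GAS in 8 of the 25 and in 9.55% of all genes (8.30% of windows). Both motifs were found in 5 members, and neither in 7, namely Irf7, Irf9, Trim25, Oasl1, Oasl2, Ifi44 and Xaf1. In KO mice the median log2 fold change of ipsilateral over contralateral libraries was 1.11 over the 15 members with an ISRE core and 0.77 over the 10 without, and in WT mice it was 1.29 and 0.92. The ranges of the members with and without a core overlapped in both genotypes. A match of letters is a description of the window and no measure of binding.

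Total counts were 11187723 to 15780600 per library, and 18292 to 19024 genes had counts. Astrocyte markers were high in every library, with a summed level over 10 genes of 11243 to 15752 TPM in KO ipsilateral, 14762 to 17018 in KO contralateral, 6066 to 8029 in WT ipsilateral and 9422 to 12909 TPM in WT contralateral libraries, so the lowest sums were those of WT ipsilateral libraries. Other cells were present as well. Oligodendrocyte markers summed to 7447 to 11227 TPM in KO ipsilateral and 4593 to 6821 TPM in KO contralateral libraries. In WT libraries they summed to 12019 to 18709 TPM ipsilaterally and 13173 to 15022 TPM contralaterally, above the astrocyte sum in each. Choroid plexus and ependymal markers summed to 1691 to 4139, 3806 to 7198, 7832 to 16181 and 11183 to 19998 TPM in the same order. Endothelial sums ran from 1975 TPM (WT ipsilateral) to 3922 TPM (KO contralateral). The 10 microglia markers, none of them at 0 in any library, summed to 560 to 4506 TPM in KO ipsilateral, 1317 to 2287 in KO contralateral, 1745 to 2617 in WT ipsilateral and 747 to 1070 TPM in WT contralateral libraries. Monocyte and macrophage markers reached at most 789 TPM, on the occluded side of a KO mouse, and lymphocyte markers at most 6.71 TPM in any library. Mouse 296 stood apart from the other WT mice, with neutrophil marker sums of 554 TPM ipsilaterally and 225 TPM contralaterally, against at most 128 TPM in any library of another mouse. Its 4 and 8 Xist counts, beside 2917 and 2733 counts of Y-linked genes, mark it as male; Xist counts in the other 5 mice were 9140 to 29592 per library. The mitochondrial share of counts was 0.923 to 1.21%, except for 1.68% and 1.83% on the occluded side of KO mice 298 and 300. In such bulk samples more cells of a type and more RNA per cell cannot be told apart.

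In the contralateral hemisphere of WT mice the levels of the members, compared per transcript length as TPM, spanned a wide range. Ifi27 was highest, at 172 ± 68.6 TPM (SD, n = 3), followed by Gbp2 at 54.0 ± 10.2, Bst2 at 48.9 ± 3.12, Stat2 at 39.1 ± 6.61 and Ifit3 at 37.6 ± 3.52 TPM. The spreads of Gbp2 and Bst2, and of Stat2 and Ifit3, overlap, so their order is not fixed by 3 mice. The lowest levels were 2.09 ± 0.851 TPM for Zbp1, 0.825 ± 0.559 for Ifi44 and 0.616 ± 0.386 TPM for Mx1. The summed level of all 35 members was 1044 to 1681 TPM in KO ipsilateral libraries, against 673 to 819 TPM in KO contralateral ones, and 1154 to 2069 TPM in WT ipsilateral libraries, against 653 to 722 TPM in WT contralateral ones. In each genotype the sums of the occluded side lay above all those of the opposite side.

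After the occlusion all 35 members had a log2 fold change above 0 on the ipsilateral side in KO mice and in WT mice, as had 49.0% and 45.4% of all genes tested. In KO mice 14 members rose (edgeR quasi-likelihood test, adjusted p under 0.05) and 0 fell, beside 5.45% of all genes called higher and 0.841% called lower (6.29% in either direction). In WT mice 30 rose and 0 fell, beside 9.61% of all genes called higher and 9.54% lower, and the fit of log2(TPM + 1) called 27 (9.59% of all genes higher). The 14 members called in KO mice were all among the 30 called in WT mice, 16 were called in WT mice without a call in KO mice, and Irf1, Oas1a, Irgm2, Ifi27 and Ifi35 were called in neither. The median log2 fold change of the members was 0.95 in KO mice and 1.29 in WT mice, against -0.01 and -0.06 over all genes, and 17 members in KO and 23 in WT mice had a log2 fold change above 1, where 6.22% of all genes did in each genotype. The 3 ipsilateral libraries lay above all 3 contralateral ones for 29 members in KO mice (18.6% of all genes) and for 29 members in WT mice (17.3%).

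**Figure D1:**
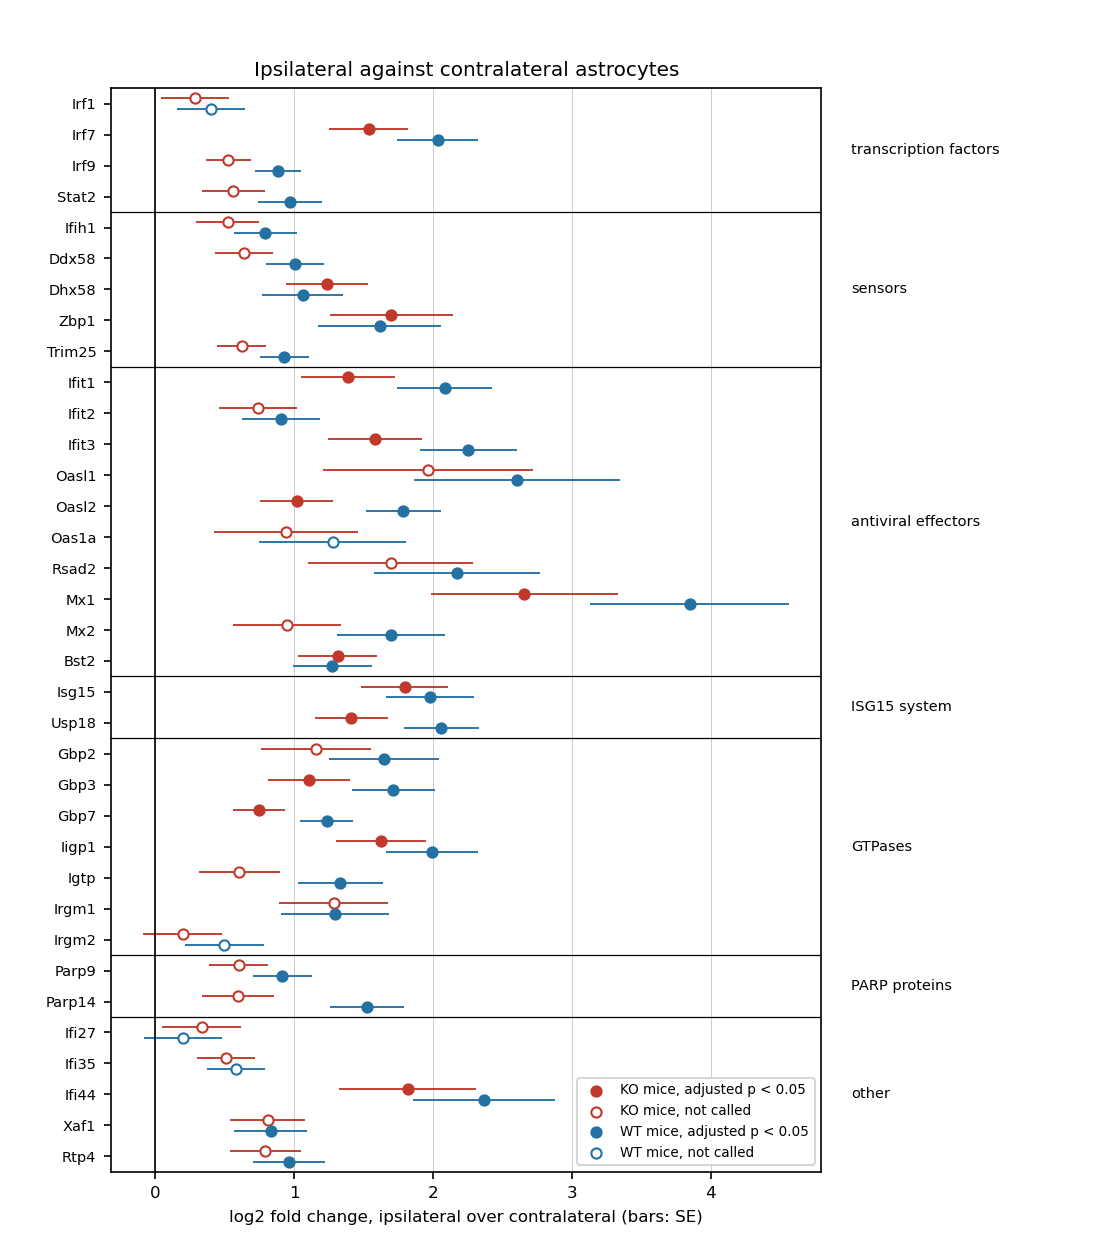
Log2 fold change of ipsilateral over contralateral libraries for each of the 35 genes in KO mice (red) and WT mice (blue), with bars of 1 SE; filled points passed an adjusted p of 0.05. All points lie right of 0, and Mx1 lies farthest right in each genotype, at 2.66 and 3.85.

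The number of members called in KO mice depended on single libraries and on the model. A fit that blocked on the mouse called 26, with 10.9% of all genes called higher, and with DESeq2 it was 23 (9.92%), while a fit of log2(TPM + 1) called 5 (2.26%). Without the KO ipsilateral library of mouse 295 the count was 2 and without that of mouse 300 it was 5. Without the KO contralateral library of mouse 295 it was 4, and without that of mouse 298 or of mouse 300 it was 0. The WT libraries share the estimate of spread, and the KO count was 22 without the WT ipsilateral library of mouse 296 and 8 without the WT contralateral library of mouse 474. With both libraries of a mouse left out it was 0 for mouse 295, 4 for 298, 0 for 300, 26 for 296 and 6 for 474. No member was called in KO mice in every fit that left out 1 library, Irf7 and Isg15 being called in 10 of 12 such fits. In WT mice 19 members were called when the contralateral library of mouse 474 was left out and 17 without both libraries of that mouse, and 19 of the 30 called members were called in all 12 fits that left out 1 library.

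Among the transcription factors Irf7 rose in both genotypes, and Irf9 and Stat2 were called in WT mice. The hemispheres of a mouse are paired, and where a fit with the mouse as a block changed a call, its adjusted p is given as the blocked adjusted p. With the block 3 of the 4 factors were called in each genotype. Values of single libraries are given in CPM, counts relative to the TMM-scaled library total, for mice 295, 298 and 300 of the KO groups and for mice 296, 297 and 474 of the WT groups, in this order throughout. Irf7, the factor that amplifies transcription of type I interferon genes, had 43.7, 20.3 and 23.7 CPM in KO ipsilateral libraries, against 11.5, 8.53 and 10.3 CPM in KO contralateral ones. It had 31.8, 22.7 and 33.3 CPM in WT ipsilateral libraries, against 5.74, 8.18 and 7.52 CPM in WT contralateral ones. Neither genotype had overlapping sides, and mouse 295 was the highest KO library. The log2 fold change was 1.54 ± 0.28 (SE) in KO mice (adjusted p = 0.0147) and 2.03 ± 0.29 in WT mice (adjusted p = 0.00158). Irf9, the DNA-binding subunit of the type I interferon complex, had 66.4, 52.2 and 62.9 CPM in KO ipsilateral and 42.5, 34.8 and 48.7 CPM in KO contralateral libraries. Its WT values were 80.8, 59.4 and 72.1 CPM ipsilaterally and 35.05, 37.1 and 42.8 CPM contralaterally. The sides did not overlap in either genotype, and the smaller log2 difference in KO mice (0.52 ± 0.16, adjusted p = 0.0752, blocked adjusted p = 0.0292) passed only with the block, while the WT difference passed without it (0.88 ± 0.16, adjusted p = 0.00462).

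Stat2, another subunit of that complex, had 79.6, 64.7 and 63.5 CPM in KO ipsilateral libraries, against 48.02, 44.2 and 48.9 CPM in KO contralateral ones. In WT mice it had 152, 85.1 and 77.7 CPM ipsilaterally, against 63.1, 51.7 and 46.1 CPM contralaterally. Mouse 296 was far above the others on the occluded side, and Stat2 rose in WT mice by 0.97 ± 0.23 (adjusted p = 0.0134), while the KO difference was 0.56 ± 0.23 (adjusted p = 0.148, blocked adjusted p = 0.0295). The counts of Stat2 and Irf7 were 0.742 and 0.80 of the reads that their RPKM implies. Irf1, a factor that interferon gamma induces through its GAS, was the least responsive of the 4. It had 54.9, 42.1 and 42.8 CPM in KO ipsilateral libraries, against 40.3, 31.2 and 43.4 CPM in KO contralateral ones, and 69.01, 35.8 and 41.7 CPM in WT ipsilateral libraries, against 46.4, 33.1 and 31.7 CPM in WT contralateral ones. The sides overlapped in each genotype, with log2 differences of 0.28 ± 0.24 in KO and 0.40 ± 0.25 in WT mice (adjusted p = 0.480 and 0.277).

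**Figure D2:**
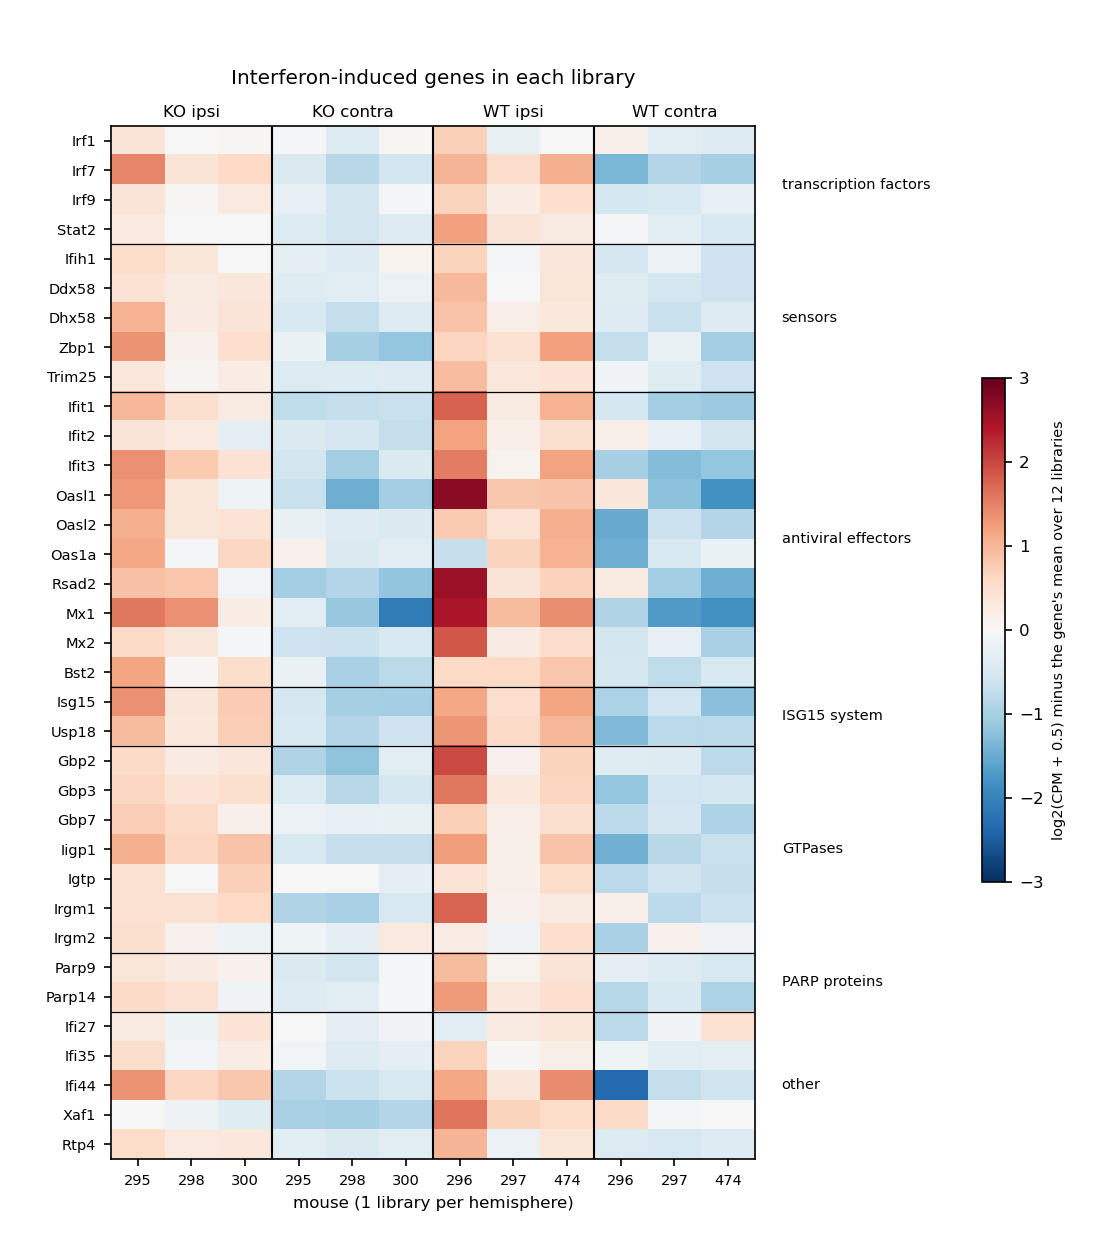
Heat map of the 35 genes (rows, by role) in the 12 libraries (columns, by group and mouse), coloured by log2(CPM + 0.5) minus the gene's mean over all libraries. Ipsilateral columns are mostly red and contralateral ones mostly blue, 25 of the 35 genes peak within the WT ipsilateral group in mouse 296, and Xaf1 is bluer in KO than in WT columns of the same side.

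All 5 sensors and partners were called in WT mice and 2 of them, Dhx58 and Zbp1, in KO mice, where the block brought the count to 4. Ddx58 encodes RIG-I, which recognises short viral RNA with a triphosphate end. It had 39.6, 35.5 and 37.5 CPM in KO ipsilateral libraries, against 22.6, 23.7 and 26.1 CPM in KO contralateral ones, and 57.7, 28.99 and 37.8 CPM in WT ipsilateral libraries, against 22.8, 20.2 and 19.01 CPM in WT contralateral ones. Its sides stood apart in each genotype, with log2 fold changes of 0.64 ± 0.21 in KO (adjusted p = 0.0857, blocked adjusted p = 0.0324) and 1.01 ± 0.21 in WT mice (adjusted p = 0.00766). Ifih1 encodes MDA5, which recognises long double-stranded RNA. Its KO values of 27.2, 23.7 and 18.4 CPM ipsilaterally and 14.9, 13.8 and 19.6 CPM contralaterally overlapped through mouse 300 (log2 difference 0.52 ± 0.23, adjusted p = 0.174). Its WT values of 29.3, 17.6 and 23.3 CPM ipsilaterally and 12.8, 16.03 and 11.7 CPM contralaterally did not overlap (log2 fold change 0.79 ± 0.23, adjusted p = 0.0322). Dhx58 encodes LGP2, which tunes these RNA sensors, and had 10.2, 5.63 and 6.30 CPM in KO ipsilateral libraries, against 3.27, 2.65 and 3.47 CPM in KO contralateral ones. In WT mice it had 8.90, 5.48 and 5.93 CPM ipsilaterally, against 3.48, 2.78 and 3.47 CPM contralaterally. Dhx58 is a member whose estimate was not smaller in KO mice (1.24 ± 0.29, adjusted p = 0.0314) than in WT mice (1.06 ± 0.29, adjusted p = 0.0272).

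Zbp1, a sensor of Z-form nucleic acids that can start necroptosis, had 10.3, 4.15 and 5.54 CPM in KO ipsilateral libraries, against 3.19, 1.62 and 1.39 CPM in KO contralateral ones. WT libraries had 6.14, 5.32 and 9.53 CPM ipsilaterally, against 2.09, 3.18 and 1.57 CPM contralaterally. Zbp1 rose by 1.70 ± 0.44 in KO (adjusted p = 0.0435) and 1.61 ± 0.44 in WT mice (adjusted p = 0.0256), with mouse 295 the highest of all 12 libraries. Trim25, the ubiquitin ligase that acts with RIG-I, had 58.1, 48.97 and 53.9 CPM in KO ipsilateral libraries, against a tight 34.9, 34.5 and 35.3 CPM in KO contralateral ones. Its WT libraries had 88.00, 57.5 and 61.9 CPM ipsilaterally, against 43.1, 35.96 and 29.8 CPM contralaterally. The sides did not overlap, and the log2 fold changes were 0.62 ± 0.18 in KO (adjusted p = 0.0567, blocked adjusted p = 0.0146) and 0.93 ± 0.18 in WT mice (adjusted p = 0.00521).

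The 10 antiviral effectors had a median log2 fold change of 1.35 in KO mice, where 5 were called, and 1.93 in WT mice, where 9 were called. With the mouse as a block 9 were called in KO mice and 10 in WT mice. The Ifit genes lie beside each other on chromosome 19, Ifit2 at 34550694 to 34576419, Ifit3 at 34583531 to 34588731 and Ifit1 at 34640871 to 34650009, all on the plus strand. Ifit3, a partner of Ifit proteins that bind foreign RNA, had 83.5, 54.7 and 43.1 CPM in KO ipsilateral libraries, against 21.6, 15.4 and 23.4 CPM in KO contralateral ones. It had 93.4, 33.9 and 73.7 CPM in WT ipsilateral libraries, against 15.7, 12.6 and 13.9 CPM in WT contralateral ones. Mouse 297 was well below the other WT mice on the occluded side, the sides did not overlap, and it rose by 1.58 ± 0.34 in KO (adjusted p = 0.0224) and 2.25 ± 0.35 in WT mice (adjusted p = 0.00218). Its counts were 0.694 of the reads that its RPKM implies, and it has a near-identical copy, Ifit3b, so how reads common to both were counted makes its level uncertain. Ifit1, which binds RNA with incomplete caps, had 25.8, 18.2 and 15.5 CPM in KO ipsilateral libraries, against 7.28, 7.57 and 7.88 CPM in KO contralateral ones. Its WT libraries had 44.6, 15.5 and 26.7 CPM ipsilaterally, against 8.78, 6.03 and 5.70 CPM contralaterally. Ifit1 rose by 1.39 ± 0.34 in KO (adjusted p = 0.0347) and 2.08 ± 0.35 in WT mice (adjusted p = 0.00286), and mouse 296 was its highest library. The windows of Ifit2 held a GAS and no ISRE core, and whether this bears on its response was not tested. Ifit2 had smaller estimates than its neighbours. It had 25.03, 23.6 and 15.8 CPM in KO ipsilateral libraries, against 13.9, 13.3 and 11.4 CPM in KO contralateral ones (log2 difference 0.74 ± 0.28, adjusted p = 0.128, blocked adjusted p = 0.0259). WT libraries held 45.1, 22.1 and 26.96 CPM ipsilaterally, against 21.5, 16.03 and 12.8 CPM contralaterally (log2 fold change 0.90 ± 0.28, adjusted p = 0.0426).

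The Oas family members lie on chromosome 5, Oasl2 at 114896936 to 114912234, Oasl1 at 114923240 to 114937915, and Oas1a apart from them at 120896256 to 120907521. Oasl2, an enzyme of the oligoadenylate synthetase family, had 52.2, 31.7 and 32.8 CPM in KO ipsilateral libraries, against 21.03, 18.6 and 18.1 CPM in KO contralateral ones. It had 42.5, 32.9 and 52.9 CPM in WT ipsilateral libraries, against 8.26, 15.6 and 13.2 CPM in WT contralateral ones. It rose in both genotypes, by 1.02 ± 0.26 in KO (adjusted p = 0.0406) and 1.79 ± 0.27 in WT mice (adjusted p = 0.00195), with counts at 0.609 of the reads that its RPKM implies. Oasl1, which in mice restrains translation of Irf7, had 8.81, 4.36 and 2.96 CPM in KO ipsilateral libraries, against 1.88, 0.882 and 1.39 CPM in KO contralateral ones. In WT libraries it had 24.2, 6.12 and 6.35 CPM ipsilaterally, against 4.35, 1.11 and 0.579 CPM contralaterally. The log2 difference was large but variable in KO mice (1.96 ± 0.75, adjusted p = 0.130, blocked adjusted p = 0.0119), and Oasl1 rose by 2.61 ± 0.74 in WT mice (adjusted p = 0.0303), mouse 296 being the highest library on each side. Oas1a, which makes the oligoadenylates that activate RNase L, showed another order of mice. It had 9.04, 3.59 and 6.02 CPM in KO ipsilateral libraries, against 4.17, 2.65 and 2.90 CPM in KO contralateral ones, and 2.13, 6.28 and 8.33 CPM in WT ipsilateral libraries, against 1.04, 2.62 and 3.22 CPM in WT contralateral ones. Mouse 296 was here the lowest WT library on each side, the sides overlapped, and neither log2 difference passed without the block (0.94 ± 0.52 in KO and 1.28 ± 0.53 in WT mice, adjusted p = 0.262 and 0.112), while both passed with it (blocked adjusted p = 0.0392 and 0.00758). Its counts were 0.746 of the reads that its RPKM implies.

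Rsad2 encodes viperin, which makes a nucleotide that stops viral RNA synthesis. It had 29.1, 27.9 and 14.5 CPM in KO ipsilateral libraries, against 7.44, 8.16 and 6.55 CPM in KO contralateral ones, and 96.2, 20.4 and 25.5 CPM in WT ipsilateral libraries, against 18.9, 7.38 and 5.29 CPM in WT contralateral ones. The sides stood apart in each genotype, mouse 296 being far above the rest, and the log2 fold changes were 1.69 ± 0.60 in KO (adjusted p = 0.106, blocked adjusted p = 0.00623) and 2.17 ± 0.60 in WT mice (adjusted p = 0.0262). Mx1 and Mx2 are neighbours on chromosome 16, at 97447035 to 97462907 and 97535308 to 97560900, and encode dynamin-like GTPases that block viral replication. In C57BL/6 and most inbred strains Mx1 carries a deletion and makes no working protein, so its transcript serves only as a readout. Mx1 had 9.04, 7.74 and 3.25 CPM in KO ipsilateral libraries, against 2.05, 0.956 and 0.252 CPM in KO contralateral ones. Its WT libraries had 16.9, 5.64 and 7.90 CPM ipsilaterally, against 1.22, 0.476 and 0.413 CPM contralaterally. Mx1 had the largest estimated rise of the members in each genotype (2.66 ± 0.67 in KO, adjusted p = 0.0394, and 3.85 ± 0.72 in WT mice, adjusted p = 0.00474), resting on 4 to 25 counts per KO contralateral and 5 to 14 per WT contralateral library. Mx2 had 13.6, 11.7 and 8.88 CPM in KO ipsilateral libraries, against 5.73, 5.59 and 6.43 CPM in KO contralateral ones. For WT libraries the values were 34.1, 10.9 and 13.2 CPM ipsilaterally, against 6.00, 7.54 and 4.38 CPM contralaterally. The sides of Mx2 stood apart, and the log2 fold change passed in WT mice (1.70 ± 0.39, adjusted p = 0.0121) but not in KO mice (0.95 ± 0.39, adjusted p = 0.150).

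Bst2 encodes tetherin, which holds budding virions at the cell surface, and had 48.2, 21.2 and 29.99 CPM in KO ipsilateral libraries, against 18.2, 10.3 and 11.7 CPM in KO contralateral ones. WT libraries held an even 31.5, 31.6 and 36.98 CPM ipsilaterally, against 14.3, 12.1 and 14.96 CPM contralaterally. Bst2 rose by nearly the same amount in KO (1.31 ± 0.28, adjusted p = 0.0236) and WT mice (1.27 ± 0.28, adjusted p = 0.0106), the difference between these estimates being 0.04 ± 0.40. Unlike most effectors it was not raised in mouse 296 over the other WT mice.

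Both genes of the ISG15 system rose in both genotypes. Isg15 (ENSMUSG00000035692), a ubiquitin-like protein that is attached to other proteins, had 25.3, 12.2 and 16.4 CPM in KO ipsilateral libraries, against 6.55, 4.56 and 4.47 CPM in KO contralateral ones. It had 21.7, 13.7 and 22.1 CPM in WT ipsilateral libraries, against 4.70, 6.19 and 3.72 CPM in WT contralateral ones. It was 3.47 times higher ipsilaterally in KO mice (log2 fold change 1.79 ± 0.31, adjusted p = 0.0122), the smallest adjusted p of the members there, and 3.93 times higher in WT mice (1.97 ± 0.32, adjusted p = 0.00249). Usp18, the protease that removes ISG15 and also damps signalling at the type I receptor, had 17.8, 11.3 and 15.5 CPM in KO ipsilateral libraries, against 6.38, 4.70 and 5.67 CPM in KO contralateral ones. It had 23.4, 13.6 and 18.4 CPM in WT ipsilateral libraries, against 3.30, 4.92 and 5.04 CPM in WT contralateral ones. The sides stood well apart, with log2 fold changes of 1.41 ± 0.26 in KO (adjusted p = 0.0154) and 2.06 ± 0.27 in WT mice (adjusted p = 0.00108, the smallest of the members there).

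**Figure D3:**
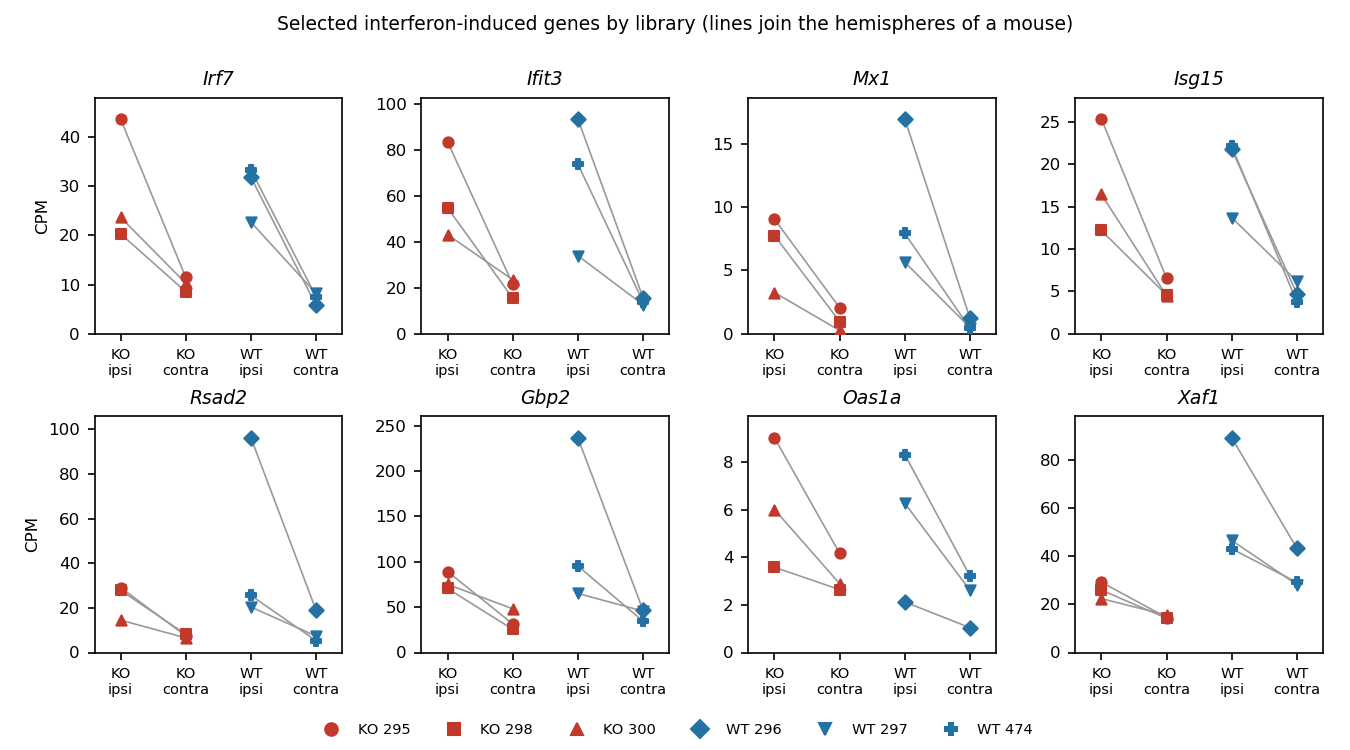
CPM of 8 of the genes in the 12 libraries, by group on the horizontal axis, with 1 symbol per mouse and lines joining the hemispheres of a mouse. Mouse 296 is the highest WT ipsilateral library for Ifit3, Mx1, Rsad2, Gbp2 and Xaf1 (96.2 CPM for Rsad2) and the lowest for Oas1a, and the KO libraries of Xaf1 lie below the WT libraries of the same side.

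Of the 7 interferon-induced GTPases, which act on the vacuoles of intracellular pathogens, 3 rose in KO mice (5 with the block) and 6 in WT mice. The Gbp genes lie together on chromosome 3, Gbp7 at 142530342 to 142550149, Gbp3 at 142560026 to 142573209 and Gbp2 at 142620602 to 142638008. Gbp2, also used as a marker of inflammatory reactive astrocytes, had 89.2, 70.6 and 75.2 CPM in KO ipsilateral libraries, against 31.6, 25.6 and 48.1 CPM in KO contralateral ones. It had 237, 65.1 and 95.3 CPM in WT ipsilateral libraries, against 46.5, 45.6 and 34.5 CPM in WT contralateral ones. The sides did not overlap in either genotype, and Gbp2 passed in WT mice (1.65 ± 0.40, adjusted p = 0.0151) but not in KO mice (1.16 ± 0.39, adjusted p = 0.0969, blocked adjusted p = 0.0455). Gbp3 had 34.8, 30.04 and 31.3 CPM in KO ipsilateral libraries, against 16.8, 12.3 and 15.6 CPM in KO contralateral ones. In WT mice it had 68.1, 28.1 and 35.3 CPM ipsilaterally, against 9.83, 14.8 and 15.4 CPM contralaterally. Gbp3 rose by 1.11 ± 0.29 in KO (adjusted p = 0.0463) and 1.71 ± 0.30 in WT mice (adjusted p = 0.00338). Gbp7 had 45.8, 41.1 and 30.2 CPM in KO ipsilateral libraries, against 23.97, 22.7 and 23.2 CPM in KO contralateral ones. In WT mice it had 45.1, 31.2 and 38.3 CPM ipsilaterally, against 15.7, 18.97 and 14.1 CPM contralaterally. The sides of both genes stood apart, and Gbp7 rose by 0.75 ± 0.19 in KO (adjusted p = 0.0375) and 1.23 ± 0.19 in WT mice (adjusted p = 0.00211), with counts at 0.866 of the reads that its RPKM implies.

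Iigp1, an effector GTPase that coats pathogen vacuoles, had 10.3, 7.46 and 8.88 CPM in KO ipsilateral libraries, against 3.19, 2.72 and 2.71 CPM in KO contralateral ones. It had 11.7, 5.32 and 8.89 CPM in WT ipsilateral libraries, against 1.39, 2.38 and 2.73 CPM in WT contralateral ones. It rose by 1.63 ± 0.32 in KO (adjusted p = 0.0178) and 1.99 ± 0.33 in WT mice (adjusted p = 0.00290), with counts at 0.536 of the reads that its RPKM implies. Irgm1, a regulator of these effectors, had 56.7, 57.3 and 62.7 CPM in KO ipsilateral libraries, against 21.9, 21.02 and 29.5 CPM in KO contralateral ones. In WT mice it had 139.99, 45.4 and 49.8 CPM ipsilaterally, against 45.9, 23.9 and 26.3 CPM contralaterally, where the contralateral library of mouse 296 lay between the ipsilateral ones of mice 297 and 474. The log2 fold changes of Irgm1 were alike, 1.28 ± 0.39 in KO (adjusted p = 0.0716, blocked adjusted p = 0.00451) and 1.29 ± 0.39 in WT mice (adjusted p = 0.0380). Igtp and Irgm2 overlap on the plus strand of chromosome 11, at 58199556 to 58207591 and 58199618 to 58222782, and the counts of Igtp were 0.0906 of the reads that its RPKM implies, so its CPM describe a small part of its reads. Igtp had 3.33, 2.32 and 4.11 CPM in KO ipsilateral libraries, against 2.29, 2.28 and 1.83 CPM in KO contralateral ones, and 3.23, 2.58 and 3.60 CPM in WT ipsilateral libraries, against 1.13, 1.35 and 1.24 CPM in WT contralateral ones. In the fit of log2(TPM + 1) it passed in KO mice (0.83, adjusted p = 0.0381) and WT mice (1.30, adjusted p = 0.00145), and on counts only in WT mice (1.33 ± 0.31, adjusted p = 0.0122). Irgm2 had 35.3, 27.5 and 22.6 CPM in KO ipsilateral libraries, against 23.1, 20.6 and 31.00 CPM in KO contralateral ones, and 29.7, 23.3 and 36.1 CPM in WT ipsilateral libraries, against 12.5, 27.4 and 23.3 CPM in WT contralateral ones. Its sides overlapped in each genotype, and neither log2 difference passed (0.20 ± 0.28 in KO and 0.49 ± 0.28 in WT mice, adjusted p = 0.687 and 0.242).

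Parp9 and Parp14, which attach ADP-ribose to proteins or assist in it, were called in WT mice and missed the threshold in KO mice. Parp9 had 24.7, 22.4 and 20.9 CPM in KO ipsilateral libraries, against 13.9, 12.9 and 18.1 CPM in KO contralateral ones, and 37.2, 20.5 and 24.8 CPM in WT ipsilateral libraries, against 15.5, 14.4 and 13.8 CPM in WT contralateral ones. Parp14 had 40.4, 37.2 and 25.2 CPM in KO ipsilateral libraries, against 20.5, 21.5 and 26.02 CPM in KO contralateral ones, and 66.3, 33.7 and 38.7 CPM in WT ipsilateral libraries, against 14.8, 19.5 and 13.9 CPM in WT contralateral ones. The KO sides of Parp14 overlapped through mouse 300 and those of Parp9 did not. Log2 fold changes were 0.60 ± 0.21 in KO and 0.92 ± 0.22 in WT mice for Parp9 (adjusted p = 0.110 and 0.0135). For Parp14 they were 0.60 ± 0.26 in KO and 1.52 ± 0.27 in WT mice (adjusted p = 0.173 and 0.00343). Parp9 shares its start region with the antisense gene Dtx3l, and whether counting used strand is not given in the sources used here.

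Of the 5 other members Ifi44 rose in both genotypes and Xaf1 and Rtp4 in WT mice, and with the block in KO mice too. Ifi44 had 10.3, 5.98 and 6.88 CPM in KO ipsilateral libraries, against 1.80, 2.21 and 2.52 CPM in KO contralateral ones, and 8.90, 4.83 and 10.9 CPM in WT ipsilateral libraries, against 0.348, 2.06 and 2.31 CPM in WT contralateral ones. The lowest WT contralateral library, of mouse 296, held 4 counts. The rises were 1.82 ± 0.49 in KO (adjusted p = 0.0498) and 2.37 ± 0.51 in WT mice (adjusted p = 0.00918). Rtp4, first known as a chaperone of receptors on their way to the membrane, had 17.5, 14.6 and 14.9 CPM in KO ipsilateral libraries, against 9.16, 8.60 and 9.39 CPM in KO contralateral ones, and 24.5, 10.4 and 15.4 CPM in WT ipsilateral libraries, against 8.70, 8.26 and 8.84 CPM in WT contralateral ones. Its contralateral values were nearly equal in all 6 mice, and it passed in WT mice (0.96 ± 0.26, adjusted p = 0.0230) and in KO mice only with the block (0.79 ± 0.26, adjusted p = 0.0836, blocked adjusted p = 0.0416). Ifi35, a leucine zipper protein, had 22.2, 14.4 and 17.9 CPM in KO ipsilateral libraries, against 14.3, 11.5 and 12.5 CPM in KO contralateral ones, and 24.4, 15.8 and 17.2 CPM in WT ipsilateral libraries, against 13.8, 11.9 and 12.6 CPM in WT contralateral ones. Its small log2 differences of 0.51 ± 0.21 in KO and 0.58 ± 0.21 in WT mice missed the threshold (adjusted p = 0.154 and 0.0726) although the sides stood apart, and the WT one passed with the block (blocked adjusted p = 0.0228). Ifi27, a small membrane protein and the most abundant member, had 100.4, 74.4 and 111 CPM in KO ipsilateral libraries, against 81.2, 68.1 and 77.3 CPM in KO contralateral ones, and 64.8, 100.1 and 107 CPM in WT ipsilateral libraries, against 46.7, 76.9 and 113 CPM in WT contralateral ones. Its sides overlapped, mouse 296 was its lowest WT library on each side, and its log2 differences were 0.33 ± 0.28 in KO and 0.20 ± 0.28 in WT mice (adjusted p = 0.472 and 0.659).

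Within single mice the pattern held in most cases. The ipsilateral library exceeded the contralateral one of the same mouse for all 35 members in mice 295, 298 and 296, for 34 in mice 297 and 474, and for 31 in mouse 300. The exceptions were Irf1, Ifih1, Irgm2 and Parp14 in mouse 300, Irgm2 in mouse 297 and Ifi27 in mouse 474. The median log2 ratio over the members was 1.03, 0.84 and 0.78 in KO mice 295, 298 and 300 and 1.44, 0.73 and 1.25 in WT mice 296, 297 and 474, with medians over all genes between -0.04 and -0.005. In all 3 mice of the genotype 31 members were higher ipsilaterally in KO mice, where 29.3% of all genes were, and 33 in WT mice, where 28.5% were.

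**Figure D4:**
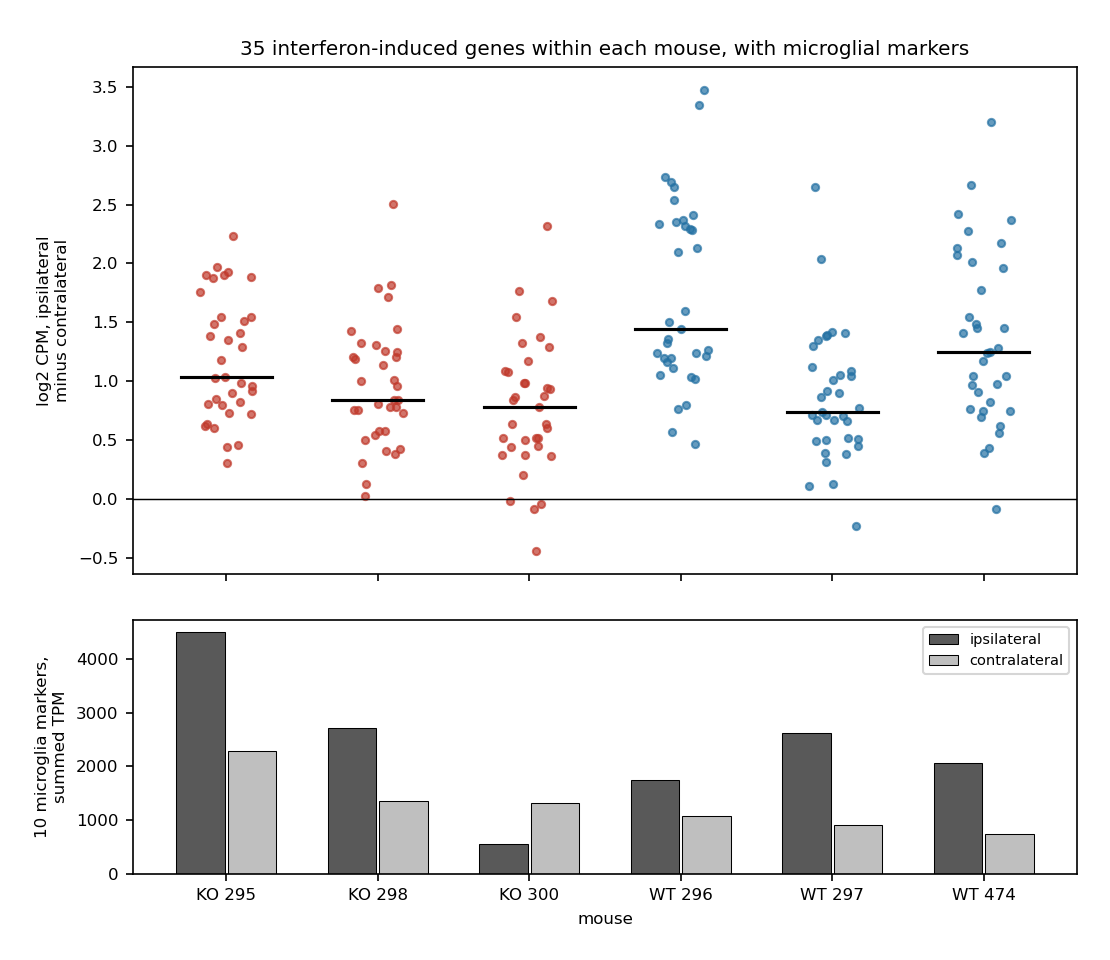
Upper panel, log2 ratio of ipsilateral to contralateral CPM of the 35 genes within each mouse (points; bars mark medians); lower panel, summed TPM of 10 microglia markers in the same libraries. The medians lie between 0.73 and 1.44 in all mice, and the microglial sum is higher ipsilaterally in 5 mice and lower in mouse 300 (560 against 1317 TPM).

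The strength of the response differed between mice of a group. In KO ipsilateral libraries mouse 295 was the highest for 32 of 35 members, although it was the highest of its group for 23.9% of all genes tested, and it also had the highest microglial sum, 4506 TPM. In WT ipsilateral libraries mouse 296 was the highest for 25 members (38.2% of all genes), with a microglial sum of 1745 TPM, the lowest of its group, and the highest neutrophil sum, 554 TPM. Mouse 297 was the lowest for 30 members and had the highest microglial sum of that group, 2617 TPM. In mouse 300 the microglial sum was lower ipsilaterally, at 560 TPM against 1317 TPM contralaterally, and 31 members were higher ipsilaterally in that mouse. Its monocyte and macrophage sum was higher ipsilaterally (433 against 364 TPM), as was its neutrophil sum (52.6 against 23.5 TPM). Microglia markers as a list had a median log2 difference of 0.55 in KO mice and 1.18 in WT mice, with 0 of 10 called in each. With the mouse as a block 0 of these 10 passed in KO mice and 4 in WT mice. That fit called 1704 of 15571 genes higher and 794 lower in KO mice, and 2289 higher and 2352 lower in WT mice. All ipsilateral libraries lay above all contralateral ones for 0 of the 10 in KO mice (18.6% of all genes). In WT mice they did for 6 of the 10 (17.3%). Other marker lists were read in the same comparison. Of all genes 5.45% were called higher in KO and 9.61% in WT mice, and 0.841% and 9.54% were called lower. Of 10 astrocyte markers 1 rose in KO mice (median -0.26) and 8 fell in WT mice (median -0.87), and of 10 pericyte and smooth muscle markers 0 passed in KO mice and 6 fell in WT mice. Monocyte and macrophage markers rose for 1 of 10 in KO mice and 2 of 10 in WT mice. Oligodendrocyte markers rose for 2 of 10 in KO mice (median 0.81) and 1 of 10 in WT mice (median 0.02). Of 6 neutrophil markers tested 0 passed (median 1.25 in KO mice and 1.26 in WT mice). Of 10 endothelial and 10 neuron markers 0 passed in either genotype. Of 8 oligodendrocyte precursor and 8 choroid plexus and ependymal markers 0 passed in KO mice, and 1 of each list fell in WT mice. With the block 4 monocyte and macrophage, 4 oligodendrocyte and 1 neutrophil markers passed in KO mice, and 5, 1 and 2 in WT mice. Astrocyte, endothelial, and pericyte and smooth muscle markers passed with it for 3, 1 and 0 in KO mice, and 10, 7 and 7 in WT mice. Choroid plexus and ependymal, precursor and neuron markers passed for 0, 0 and 1 in KO mice, and 3, 1 and 1 in WT mice. The part of any of these cells in the values of the members was not tested.

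Between genotypes on the occluded side, Xaf1 was the member that passed. Xaf1 (ENSMUSG00000040483, chromosome 11, 72301629 to 72313733, plus strand) encodes a protein that binds the apoptosis inhibitor XIAP and counters it. It had 29.3, 25.96 and 22.4 CPM in KO ipsilateral libraries, against 89.3, 46.6 and 43.1 CPM in WT ipsilateral ones. On the opposite side it had 14.6, 14.3 and 15.6 CPM in KO contralateral libraries, against 43.3, 28.3 and 29.2 CPM in WT contralateral ones. On each side every KO library lay below every WT library, as for 10.1% of all genes ipsilaterally and 13.5% contralaterally. Ipsilaterally Xaf1 was lower in KO mice by a log2 fold change of -1.20 ± 0.26 (adjusted p = 0.0222), 1 member called lower and 0 higher, beside 1.98% of all genes called lower and 4.33% higher (6.31% together). Contralaterally the log2 difference was nearly the same, -1.18 ± 0.27 (adjusted p = 0.0537), and missed the threshold, so that 0 members were called there, beside 1.41% of all genes called lower and 0.0835% higher (1.5% together). At an unadjusted p under 0.05 the contralateral comparison held 2230 of the 15571 genes, and DESeq2 called Xaf1 in it (adjusted p = 0.00239). The ipsilateral call was lost without the KO library of mouse 298 or 300 or the WT library of mouse 296 or 297 on that side, the estimate staying between -1.36 and -0.79 when any 1 library was left out. It was lost too without both libraries of mouse 295, 298, 300 or 297, and in the fit of the ipsilateral groups alone. The contralateral difference passed without the WT ipsilateral library of mouse 296 or 474 and without both libraries of either mouse. In the ipsilateral genotype comparison 10 of 10 astrocyte markers lay above 0, with 8 called higher in KO ipsilateral libraries (median 1.02), as were 5 of 10 pericyte and smooth muscle markers, and 3 of 10 oligodendrocyte markers were called lower (median -0.99). Of 10 microglia markers 0 were called. Of 8 choroid plexus and ependymal markers 2 were called lower, with 4 estimates below and 4 above 0. Of 10 neuron markers 1 was called lower (median 0.41), and of 8 oligodendrocyte precursor markers 1 was called higher. Contralaterally 1 choroid plexus and ependymal marker and 1 neuron marker were called lower, beside 5 oligodendrocyte markers. The part of these cells in the Xaf1 difference was not tested. The occlusion estimates of Xaf1 were close to each other, at 0.81 ± 0.27 in KO (adjusted p = 0.0893, blocked adjusted p = 0.0135) and 0.83 ± 0.26 in WT mice (adjusted p = 0.0448, with a WT contralateral library just above the lowest WT ipsilateral one).

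The other 34 members did not pass between genotypes on either side. Ipsilaterally 29 of 35 were below 0, where 47.9% of all genes were, and contralaterally 14 of 35, where 50.2% were. These directions rest on single libraries: leaving out 1 library turned the sign of 23 members ipsilaterally and 16 contralaterally in at least 1 fit. After Xaf1 the smallest ipsilateral adjusted p-values were those of Stat2 (-0.60 ± 0.23, adjusted p = 0.145), Trim25 (-0.37 ± 0.17, 0.249), Mx2 (-0.76 ± 0.38, 0.268) and Ifit2 (-0.54 ± 0.28, 0.286), all with overlapping groups and with mouse 296 as the highest WT library. Irf7, Isg15, Bst2 and Iigp1 lay near 0 on the occluded side, at log2 differences of -0.002 ± 0.272, -0.09 ± 0.30, -0.01 ± 0.28 and 0.04 ± 0.31. Contralaterally the smallest adjusted p-values after Xaf1 were those of Gbp7 (0.52 ± 0.19, adjusted p = 0.232), Igtp (0.77 ± 0.31, 0.283), Oasl2 (0.63 ± 0.27, 0.303) and Parp14 (0.50 ± 0.26, 0.414), whose KO libraries all lay above the WT libraries. Together with Irf7 they were the 5 members standing apart upward on that side, where 11.0% of all genes did. Microglia markers had 10 of 10 estimates above 0 on that side too, with a median of 0.88 and 0 called, and oligodendrocyte markers had 10 of 10 below 0 with 5 called; their part in these differences was not tested.

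**Figure D5:**
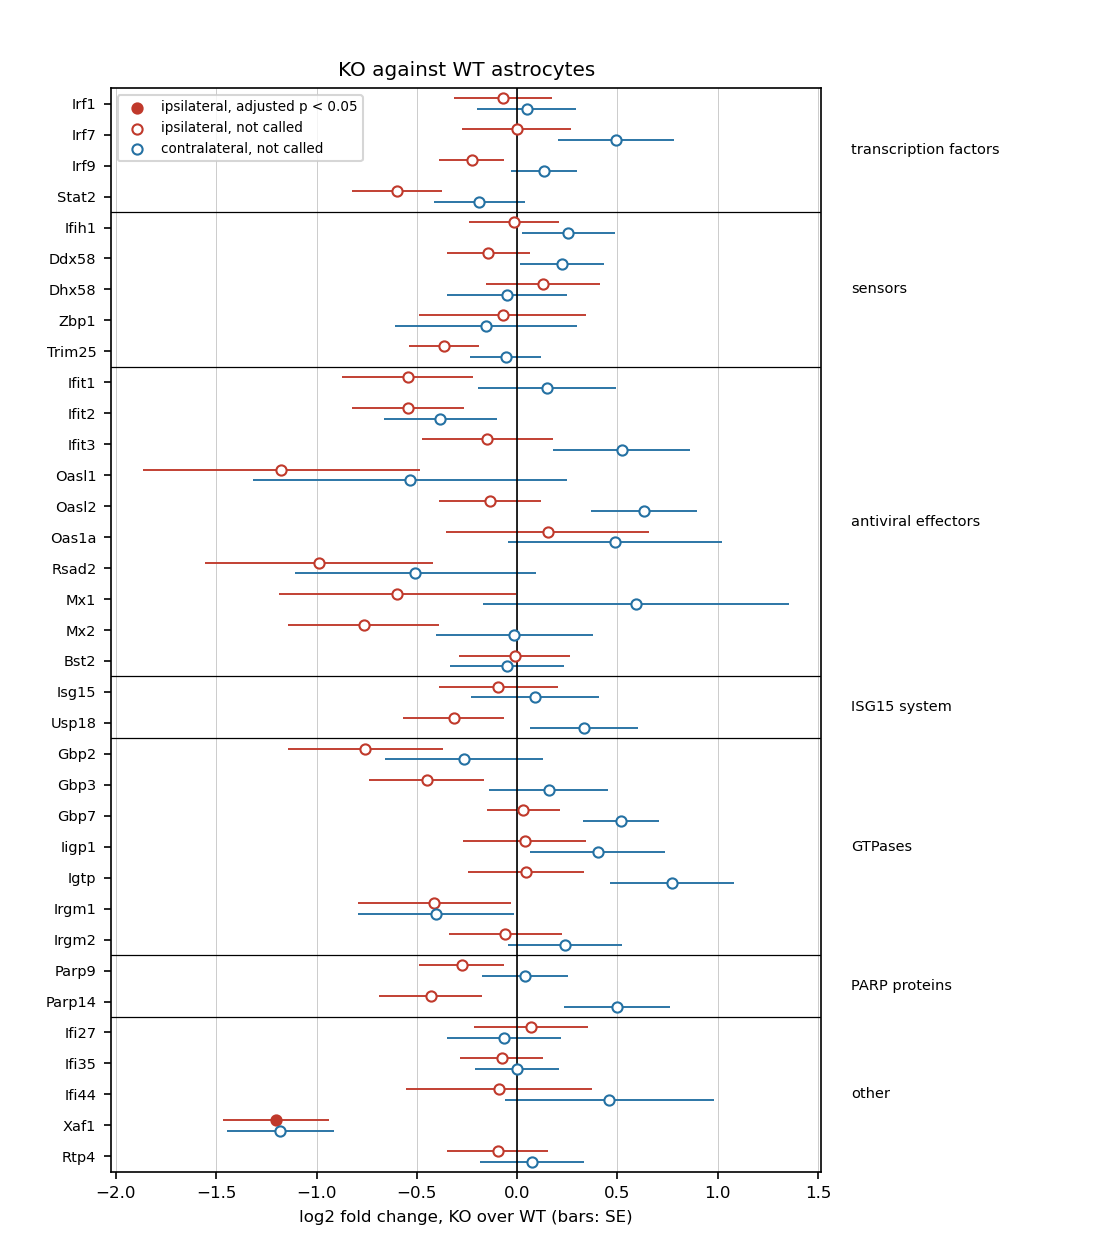
Log2 fold change of KO over WT libraries for each of the 35 genes on the ipsilateral (red) and contralateral (blue) side, with bars of 1 SE; the filled point passed an adjusted p of 0.05. Xaf1 lies at -1.20 ipsilaterally, the filled point, and at -1.18 contralaterally.

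Whether the occlusion response itself differed between genotypes was tested by the interaction, the KO log2 fold change minus the WT one. It was below 0 for 31 of 35 members, where 43.1% of all genes were, with a median of -0.36 against 0.06 over all genes. In edgeR 0 of 35 members and 0 of 15571 genes passed, 763 genes having an unadjusted p under 0.05, and 0 members passed in DESeq2, which called 13 genes, or in any other fit made. By the edgeR quasi-likelihood test, the members with the smallest p were Parp14, at -0.93 ± 0.37 (adjusted p = 0.948), Oasl2, at -0.77 ± 0.37 (adjusted p = 0.948), and Gbp7, at -0.49 ± 0.26 (adjusted p = 0.948). Dhx58, Zbp1, Bst2 and Ifi27 were the members above 0, at 0.18 ± 0.41, 0.08 ± 0.61, 0.04 ± 0.40 and 0.13 ± 0.40. The 16 members called in WT mice and not in KO mice are therefore not shown to differ between the genotypes. The ipsilateral, contralateral and occlusion comparisons share libraries and are not independent of each other or of the interaction.

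The rest of the pathway was read from lists of genes. Interferon transcripts themselves were at the limit of detection. Of 21 ligand genes 12 had no counts in any library and 0 had enough to be tested, and the 21 summed to 2 to 6 counts per KO ipsilateral, 0 to 3 per KO contralateral, 3 to 10 per WT ipsilateral and 1 to 4 per WT contralateral library. Ifnb1, the interferon beta gene, had 2, 1 and 0 counts in KO ipsilateral libraries, 4, 1 and 4 in WT ipsilateral ones, and 0 in all 6 contralateral libraries, where 3 counts are the limit that 0 allows in a library. Ifng, the interferon gamma gene, had 1, 1 and 2 counts in KO ipsilateral libraries, against 0, 3 and 3 in KO contralateral ones, and 0, 1 and 3 in WT ipsilateral libraries, against 0, 2 and 1 in WT contralateral ones. Of 9 receptor and kinase genes 0 passed in KO mice (5.45% of all genes were called higher) and 2 rose in WT mice (9.61%), Jak1 (0.40 ± 0.10, adjusted p = 0.0179) and the receptor chain Ifngr2 (0.49 ± 0.15, 0.0470). Their KO estimates were 0.25 ± 0.10 (adjusted p = 0.142) and 0.47 ± 0.15 (0.0876, blocked adjusted p = 0.0392). Of the interferon transcription factors outside the members, Nlrc5, the activator of MHC class I genes, rose in WT mice by 1.37 ± 0.32 (0.0137), Irf4 rose by 2.78 ± 0.71 (0.0186), and Irf3, which starts type I interferon transcription, fell, with a log2 fold change of -0.41 ± 0.12 (0.0399). Their KO estimates were 1.01 ± 0.33, 1.52 ± 0.69 and -0.11 ± 0.12 (adjusted p = 0.0829, 0.184 and 0.594), that of Nlrc5 passing with the block (blocked adjusted p = 0.0315).

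Of 15 genes that sense nucleic acids upstream of interferon, the same 3 rose in each genotype, where 5.45% of all genes were called higher in KO and 9.61% in WT mice. Ifi204, a DNA-binding protein, rose by 2.80 ± 0.36 in KO (adjusted p = 0.00390) and 3.57 ± 0.37 in WT mice (0.000898). Tmem173, which encodes STING, the adaptor of cytosolic DNA sensing, rose by 1.004 ± 0.256 in KO (0.0400) and 1.11 ± 0.26 in WT mice (0.0133). Myd88, the adaptor of most Toll-like receptors, rose by 0.76 ± 0.20 in KO (0.0480) and 1.02 ± 0.21 in WT mice (0.00677), with counts at 0.322 of the reads that its RPKM implies. Between genotypes Ticam1, which encodes the Toll-like receptor adaptor TRIF, was higher in KO than in WT ipsilateral libraries by 0.73 ± 0.17 (0.0264), the only gene of the pathway lists called there. Of 10 brakes on the signal Socs3, an inhibitor of Jak kinases, rose in KO (1.17 ± 0.26, 0.0269) and WT mice (1.01 ± 0.26, 0.0212), and the phosphatases Ptpn2 (0.75 ± 0.17, 0.00998) and Ptpn6 (1.58 ± 0.39, 0.0161) rose in WT mice, Ptpn2 also in KO mice with the block (blocked adjusted p = 0.0340). Of 74 further interferon-induced genes 61 were tested, 10 rose in KO mice (beside the 5.45% of all genes) and 25 in WT mice (beside the 9.61%), and 0 fell. Their median log2 fold change was 0.56 in KO and 0.81 in WT mice. Among the largest calls were Mnda, whose counts were 0.521 of the reads that its RPKM implies, at 3.54 ± 0.39 in KO and 4.96 ± 0.44 in WT mice (0.00302 and 0.000539), and Pyhin1, at 3.16 ± 0.37 and 4.24 ± 0.42 (0.00312 and 0.000800), both of the Ifi200 family of myeloid and other cells. The schlafen gene Slfn2 rose by 2.05 ± 0.34 in KO and 2.71 ± 0.35 in WT mice (0.00949 and 0.00105). Ifi205 rose by 4.48 ± 0.73 in KO and 3.68 ± 0.64 in WT mice (0.00941 and 0.00334), and Trim30a by 1.64 ± 0.26 in WT mice (0.00224). Values without an SE in these parentheses are adjusted p-values.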

How the data were processed

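Bulk RNA-seq of ACSA-2-selected mouse brain cells gave 12 libraries, 3 for each of 4 groups. The authors deposited a table per library with a count, a TPM and an RPKM value for each gene, and mm10 is the genome build named, per the submitters' processing notes. Not given in the sources used here: the aligner, the counting tool, and whether it used strand. Deposited counts were tested with edgeR 4.0.16 in R 4.3.3: genes were kept by filterByExpr with a minimum count of 10, scaled by TMM and fitted with 1 term per group by the robust quasi-likelihood method, which left 8 residual degrees of freedom. Adjustment followed Benjamini-Hochberg over 15571 genes, and an adjusted p under 0.05 is a call. The interaction is the KO occlusion effect minus the WT one. The fit was run on simulated data beforehand, but the outcome is not given here and no conclusion is drawn from it. SE is the log2 fold change divided by the square root of the F statistic.

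All 35 members are named with their values. The members, pathway lists and marker lists were chosen with earlier results of these data known. The mouse number in the labels pairs the hemispheres of an animal, and deviations from the group means correlated between hemispheres at 0.39, 0.50 and 0.20 in KO mice and at 0.70, -0.04 and 0.44 in WT mice over 12551 genes. The labels' numbers were taken as separate mice. The main fit treats both hemispheres of a mouse as independent libraries, so its p-values measure the spread between libraries within the groups. Only the fit with the mouse block uses the pairing. Alternatives were DESeq2 1.42.0, limma 3.58.1 (voom, and a trend fit of log2(TPM + 1) or log2(TPM + 0.1) for genes at 1 TPM in 3 libraries), other scaling, other low count filters, a mouse block, fits of the compared groups alone, and leaving out each library or mouse. Deposited counts were set against the reads implied by the deposited RPKM, and 64.8% of 13691 genes lay within 2% of the library's median share. Promoter sequences are from RefSeq.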

Additional observations from a re-analysis of the deposited data

How the results depend on the processing

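Directions of the members held in nearly all settings for the occlusion and not for the genotype, where leaving out 1 library turned the sign of 23 of 35 ipsilaterally and 16 contralaterally. Of the log2 fold changes after occlusion, 1 reversed in KO mice (Irgm2, from -0.0405 to 0.504 over the fits that left out a library or mouse) and 1 in WT mice (Ifi27, from -0.0704 to 0.59). The mouse was used as a replicate block in a paired fit: it called 26 members and 2498 genes in KO mice and 4641 genes in WT mice. DESeq2 called 23 members and 2057 genes in KO mice, 1756 genes between genotypes ipsilaterally, 1 member and 656 genes contralaterally, and 13 genes in the interaction. TPM fits called 5 members in KO mice with each pseudocount, 552 genes (pseudocount 1) and 534 (0.1), 149 and 140 genes contralaterally, and 2 in the interaction with 0.1. The median of all genes tested differed between the TPM fit and the counts by -0.16 in KO occlusion, 0.12 in the contralateral genotype comparison and -0.22 in the interaction, the TPM fit differing in unit, genes tested and model. Fits of the 2 compared groups alone called 24 members and 1790 genes in KO mice, 18 and 1579 in WT mice, 0 and 196 ipsilaterally, and 1 member contralaterally, as did both other low count filters. Leaving out a library or mouse gave 0 to 26 members and 2 to 2282 genes in KO mice, 17 to 31 and 659 to 3610 in WT mice, 0 to 1 and 0 to 1351 ipsilaterally, and 0 to 1 and 0 to 391 contralaterally. The cause of these shifts was not tested. Each group held 3 mice, and counts were few for Mx1, Ifi44, Oasl1 and Igtp. Small differences between genotypes may have been missed, and how small a difference could be detected was not tested.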
